A study of Mus musculus with 24 samples.

Results

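The deletion of Tyrobp in mice that carry the Q175 allele was examined by RNA sequencing of the striatum. The 12 libraries concerned were chosen by their genotype label from the 24 of the study. They comprised 6 labelled as Q175 heterozygotes, called Q175, and 6 labelled as Q175 heterozygotes with knockout of Tyrobp, called DM after the prefix of their titles. The Q175 allele puts an expanded CAG repeat into mouse Htt and models Huntington's disease, and all 12 animals were heterozygous for it. The remaining 12 libraries, 6 of wild type (WT) and 6 of Tyrobp knockout without the Q175 allele (KO), entered the same fit and are given beside the main values. All animals were C57BL/6 mice, and each genotype had 3 males (replicates 1 to 3) and 3 females (replicates 4 to 6). Each library came from the frozen striatum of a single hemisphere, and the sources used here do not give the age of the mice. The titles give each library its own animal number but say nothing of litters, and p-values measure the spread between these libraries. The labels give the deletion as a knockout and name no promoter or cell type that would limit it. The animal numbers of both deletion genotypes share a prefix that no other animal has, so that what the prefix marks and Tyrobp genotype cannot be told apart.

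Tyrobp encodes DAP12, a small transmembrane adaptor of myeloid cells, which in the brain are mainly microglia. Receptors with a short tail, such as Trem2, pair with DAP12, whose ITAM motif recruits the kinase Syk and through it phospholipase C gamma, PI3 kinase and Vav proteins. In models of neurodegeneration, microglia near damage lower homeostatic genes such as P2ry12 and raise a set of disease-associated genes, among them Clec7a, Cst7, Itgax and Lyz2, a change known to depend in part on Trem2 and Tyrobp.

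Total counts lay between 25.7 M and 28.6 M (M, megacounts) in Q175 and between 25.5 M and 30.6 M in DM. Markers of striatal projection neurons were abundant in every library, with summed levels of 12260 to 16010 CPM (read counts scaled to library size with TMM factors) in Q175 and 10790 to 16420 CPM in DM. Sex labels matched sex-linked genes in 24 of 24 libraries. Q175 replicate 3 stood apart in choroid plexus genes, whose 14 tested members summed to 4397 CPM there and to at most 634.7 CPM in any DM library. Summed cortical markers ranged from 336 to 901.9 CPM in Q175 and from 344.4 to 959 CPM in DM, a range that the groups shared. Htt itself did not pass the test, at a median of 167.8 CPM in Q175 and 169.2 CPM in DM.

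Across 19667 genes tested, 31 (0.158%) passed an adjusted p of 0.05 (Benjamini-Hochberg, edgeR) in DM against Q175 and are said to be called, 9 higher and 22 lower. Of these, 20 lay on chromosome 7 within 20 Mb of Tyrobp, where 561 genes were tested (3.57% called). Outside that window 11 of 19106 genes (0.0576%) were called. The 10 that were lower there were Lyz2, Lag3, Clec7a, Trem2, Cst7, Itgax, Gm10561, C1qb, Adgre1 and Mpeg1, of which all but Gm10561 are genes of microglia or other myeloid cells. The only one that was higher was the pseudogene Pdcd5-ps. In bulk tissue, fewer cells of a type and less RNA per cell cannot be told apart.

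**Figure D1:**
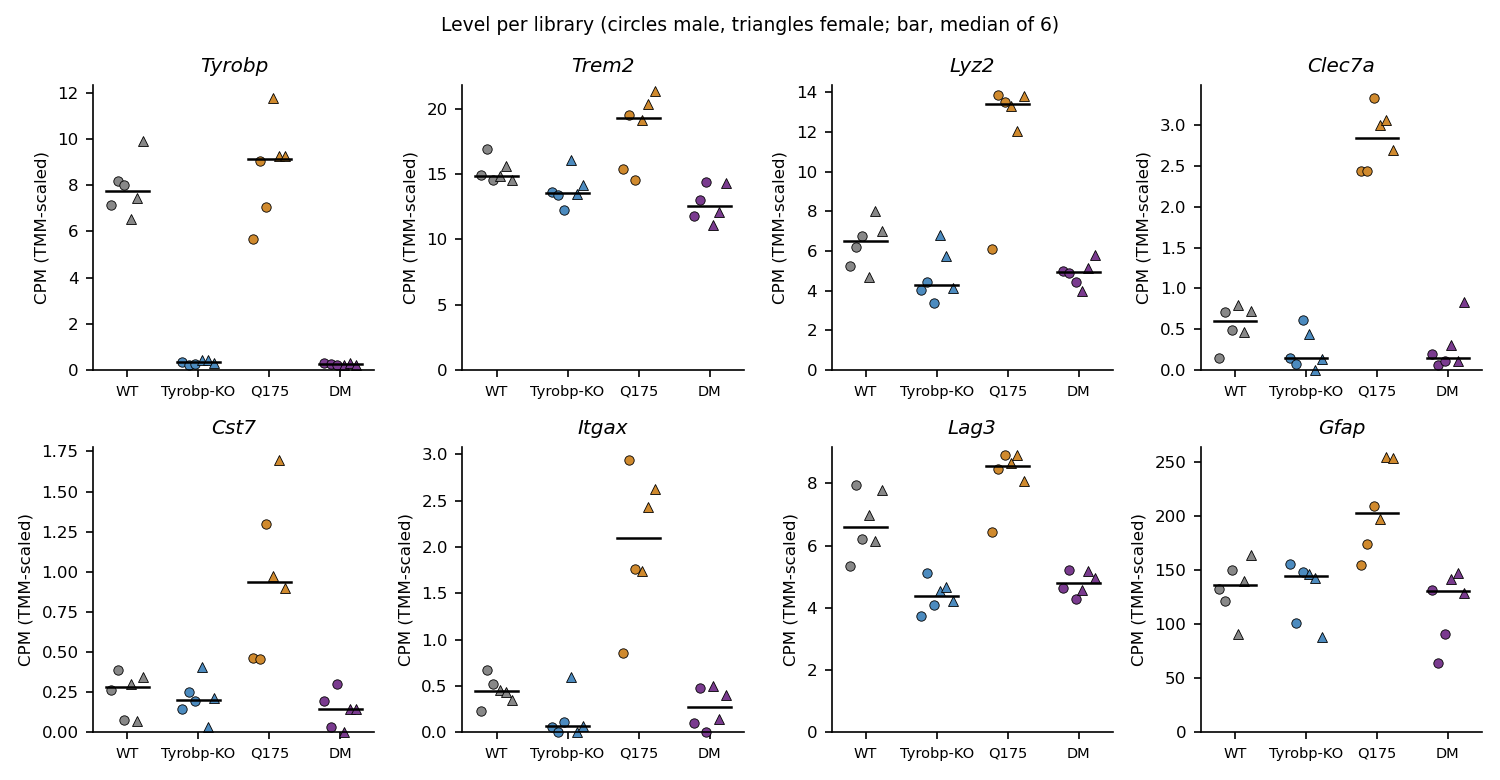
Level of 8 genes in each library, in TMM-scaled CPM on linear axes that start at 0, by genotype. Circles are males, triangles females and bars the median of 6 libraries. All 6 DM libraries lie below all 6 Q175 libraries for each gene shown, Gfap included, which was not called.

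Tyrobp (chr7:30413760-30417585, GRCm38) was the check of the labels. Its level in the Q175 libraries was lowest at 5.70, median 9.15 and highest at 11.8 CPM, and in the DM libraries 0.218, 0.252 and 0.323 CPM. Every DM library was therefore below every Q175 library, and 44 reads remained in the 6 DM libraries against 1472 in Q175. The log2 fold change was -5.01 ± 0.19 (SE, adjusted p by edgeR of 1.06e-16), which is 32.3 times lower.

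Among 24 listed receptors known or thought to pair with DAP12, 8 had enough reads to be tested, and the other 16 had between 0 and 145 reads over all 24 libraries. All 8 had a negative fold change, with a median of -0.24 on the log2 scale (-0.147 without DM replicate 1), where the median over genes outside the window was -0.0025 and 50.7% of them were negative. Of these 8, Trem2, the lipid-sensing receptor of microglia, was called lower (background of lower calls outside the window, 0.0523%). Its lowest, median and highest levels were 14.5, 19.3 and 21.3 CPM in Q175 and 11.1, 12.6 and 14.4 CPM in DM. No DM library reached the lowest Q175 library, although the highest DM library came close to it. Trem2 fell by 0.51 ± 0.09 on the log2 scale (adjusted p by edgeR of 0.00426), and its call was kept when any 1 of the 12 libraries was left out. In a fit of the 12 libraries alone its adjusted p was 0.0721 by edgeR.

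The other receptors of this list were not called by edgeR with all libraries. Itgb2, the beta chain of the phagocytic integrin CR3, had medians of 8.90 CPM in Q175 and 6.26 CPM in DM and a log2 fold change of -0.51 ± 0.12 (adjusted p by edgeR of 0.106). It passed with DESeq2 (adjusted p of 0.0155) and without DM replicate 6 (adjusted p by edgeR of 0.00766), which made 2 calls among the 8. Its alpha chain Itgam differed by -0.05 ± 0.11. Csf1r, the receptor on which microglial survival depends, had medians of 99.5 and 85.8 CPM, and Siglech, a sialic-acid receptor, of 19.2 and 16.9 CPM, with overlapping groups for both. Clec5a, a lectin that signals through DAP12, had medians of 2.31 and 1.95 CPM.

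Of 28 listed genes that act downstream of DAP12, 27 were tested and none was called in either direction. The median log2 fold change was -0.19, and it was -0.0954 without DM replicate 3 and -0.0763 in females alone. At an unadjusted p under 0.05, 3 were lower and 0 higher (background outside the window 3.48% lower and 2.37% higher). The 3 were Pik3ap1, an adaptor of PI3 kinase, with -0.49 ± 0.17, the Src family kinase Lyn with -0.35 ± 0.13, and the phosphatase Ptpn6 (SHP-1) with -0.25 ± 0.11. Ptpn6 was the only one of them without overlap, at 4.53 to 4.97 CPM in Q175 and 3.52 to 4.46 CPM in DM. Many of these genes, such as Src, Fyn and Grb2, are also expressed outside microglia.

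Promoter sequences of the genes called outside the window are shown because 9 of them are genes of one lineage that moved in one direction. RefSeq promoters (GRCm38.p6) were found for 8 of the 11. The 6 letters GAGGAA, the core to which the myeloid factor PU.1 (Spi1) is known to bind, or their complement TTCCTC, occurred within 250 bases upstream of the start site in 3 of the 8 (37.5%) and in 6252 of 27025 promoters in all (23.1%). The 120 bases before the start site of those 3 follow, on the strand of the gene, with the 6 letters in capitals, and then those of Lyz2 and Cst7, which do not hold them. The stretches are chr17:48346281-48346400 (+) for Trem2, chr6:129472780-129472899 (-) for Clec7a, chr4:136886201-136886320 (-) for C1qb, chr10:117282273-117282392 (-) for Lyz2 and chr2:150570295-150570414 (+) for Cst7.
Trem2: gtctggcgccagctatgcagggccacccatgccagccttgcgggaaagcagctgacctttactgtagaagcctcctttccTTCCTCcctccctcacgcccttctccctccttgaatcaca
Clec7a: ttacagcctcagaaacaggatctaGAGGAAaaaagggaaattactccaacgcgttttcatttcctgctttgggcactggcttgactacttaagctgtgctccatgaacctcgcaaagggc
C1qb: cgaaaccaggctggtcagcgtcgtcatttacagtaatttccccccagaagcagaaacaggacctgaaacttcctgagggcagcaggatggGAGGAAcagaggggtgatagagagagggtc
Lyz2: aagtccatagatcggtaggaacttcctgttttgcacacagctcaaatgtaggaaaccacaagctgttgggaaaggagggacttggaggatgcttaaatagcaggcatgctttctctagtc
Cst7: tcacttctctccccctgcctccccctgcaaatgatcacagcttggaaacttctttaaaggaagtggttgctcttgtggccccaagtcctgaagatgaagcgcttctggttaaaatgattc
The first base of the 6 letters stood at -96 in Clec7a, -40 in Trem2 and -30 in C1qb, counted from the start site. A match describes these letters only, and no binding was measured.

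Disease-associated microglia genes made up 5 of the 11 called genes outside the window. Of 34 listed, 33 were tested, 5 were called lower (Lyz2, Lag3, Clec7a, Cst7 and Itgax) and none was called higher. A further 13 were lower at an unadjusted p under 0.05, making 18 of 33, and 29 had a negative fold change. Outside the window 0.0523% of genes were called lower, 3.48% were lower at that unadjusted p and 50.7% were negative. All gene lists used here were chosen with earlier results of these data known, so such counts are not independent of them. The median log2 fold change of the list was -0.35. It was -0.222 without Q175 replicate 3, and -0.172 when only genes with a mean of at least 1 CPM were tested. In 5 of the 33, all 6 DM libraries were below all 6 Q175 libraries, as in 0.241% of genes outside the window. Their mean log2 level (31 members outside the window, CPM plus 0.5) was 3.55 to 4.04 with a median of 3.95 in Q175, and 3.23 to 3.62 with a median of 3.39 in DM. Q175 replicate 1 was the low library at 3.55, below DM replicate 6 at 3.62, and the other 5 Q175 libraries were at 3.87 or more. The WT libraries spanned 3.38 to 3.61 and the KO libraries 3.26 to 3.61, a range that the DM libraries shared.

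Clec7a encodes Dectin-1, a lectin receptor that signals through Syk. Its lowest, median and highest levels were 2.44, 2.85 and 3.33 CPM in Q175 and 0.0683, 0.153 and 0.835 CPM in DM. The 2 groups were far apart, and the highest DM library, replicate 6, stood alone above the other 5. The log2 fold change was -3.42 ± 0.51 (adjusted p by edgeR of 0.0006), 10.7 times lower, against medians of 0.600 CPM in WT and 0.144 CPM in KO.

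Itgax encodes CD11c, an integrin chain of dendritic cells and activated microglia. It ranged from 0.852 over 2.10 to 2.94 CPM in Q175 (lowest, median, highest) and from 0 over 0.272 to 0.499 CPM in DM. The groups did not overlap, and it fell by 2.94 ± 0.57 on the log2 scale (adjusted p by edgeR of 0.0185). Itgax is on chromosome 7 too, but 97.7 Mb from Tyrobp. The call was lost without Q175 replicate 2 or 6 or DM replicate 1 or 5 (adjusted p by edgeR of up to 0.0845), at few reads per library.

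Lag3, a checkpoint receptor of T cells that microglia also express, stood at 6.43, 8.55 and 8.92 CPM (lowest, median, highest) in Q175 and at 4.28, 4.82 and 5.23 CPM in DM. Q175 replicate 1 was again the lowest of its group, yet no library overlapped. Lag3 fell by 0.77 ± 0.11 on the log2 scale (adjusted p by edgeR of 0.000318). It was one of 2 genes outside the window also called in KO against WT, where it fell by 0.62 (adjusted p by edgeR of 0.0098) from a median of 6.59 to 4.38 CPM.

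Lyz2 encodes lysozyme, the bacteriolytic enzyme of macrophages. Its levels were 6.08, 13.4 and 13.9 CPM in Q175 (lowest, median, highest) and 3.99, 4.95 and 5.81 CPM in DM. The low value in Q175 was that of replicate 1, which lay near the WT median of 6.48 CPM while the other 5 were at 12.04 CPM or more. Lyz2 fell by 1.30 ± 0.17 on the log2 scale (adjusted p by edgeR of 4.88e-05), and by 1.43 ± 0.14 without Q175 replicate 1.

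Cst7 encodes cystatin F, an inhibitor of lysosomal cathepsins. It was scarce, at 0.460, 0.937 and 1.69 CPM in Q175 (lowest, median, highest) and 0, 0.145 and 0.300 CPM in DM. The groups did not overlap, and the log2 fold change was -2.76 ± 0.54 (adjusted p by edgeR of 0.0185). The call was lost without Q175 replicate 3 or 5 or DM replicate 2, 4 or 5, with an adjusted p by edgeR of up to 0.0782. It was also lost in a fit of the 12 libraries alone (adjusted p by edgeR of 0.0644).

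The disease-associated genes just short of the call were of the same direction but overlapped between groups. Ctss, a cathepsin of microglia, had medians of 84.3 CPM in Q175 and 60.3 CPM in DM (-0.42 ± 0.09, adjusted p of 0.0570 by edgeR and of 0.00511 by DESeq2). Ctsd, the main aspartic protease of lysosomes, had medians of 143.6 and 115.6 CPM (-0.27 ± 0.06), and the chemokine Ccl3 0.642 and 0.185 CPM (-1.84 ± 0.43). The pattern receptor Tlr2 had 2.23 and 1.04 CPM, Cd52, a small glycoprotein of leukocytes, 1.94 and 0.908 CPM, and the tetraspanin Cd9 45.9 and 35.6 CPM.

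Several abundant members showed little difference. Apoe, the main lipid carrier of the brain and itself inside the chromosome 7 window, and Ctsb, a lysosomal cysteine protease, had log2 fold changes near 0. Fabp5, a fatty acid carrier (0.17 ± 0.09), and Gpnmb, a glycoprotein of lipid-laden macrophages, were 2 of the 4 members with a positive fold change. Spp1, osteopontin, had medians of 15.8 and 4.06 CPM, but 1 DM library reached 20.8 CPM, above all Q175 libraries.

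**Figure D2:**
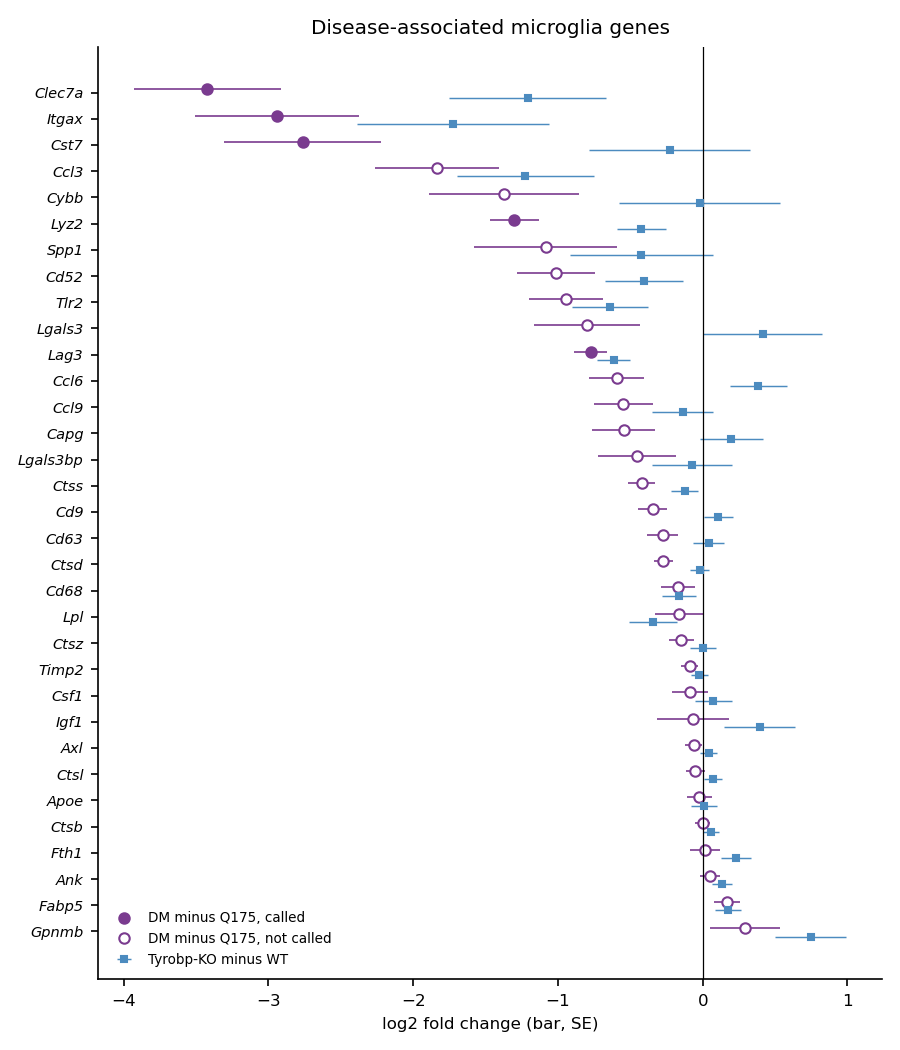
Log2 fold change of the 33 disease-associated microglia genes tested, with SE bars, for DM minus Q175 (circles, filled where called) and for KO minus WT (squares). The 5 called genes lie between -3.42 and -0.77 in DM minus Q175, and 29 of 33 circles are left of 0.

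Complement genes had 1 call among 19 tested. C1qb, a chain of the C1q complex that opens the classical pathway and is made by microglia, had 34.8, 47.0 and 56.0 CPM in Q175 (lowest, median, highest) and 30.0, 33.5 and 41.1 CPM in DM. The ranges overlapped, with Q175 replicates 1 and 3 below the highest DM library, and C1qb fell by 0.39 ± 0.08 on the log2 scale (adjusted p by edgeR of 0.0221). Its call was lost without Q175 replicate 2, 4 or 6 or DM replicate 1, 2, 4 or 5 (adjusted p by edgeR of up to 0.112). It was also lost with no sex term (adjusted p by edgeR of 0.197) and in a fit of the 12 libraries alone (0.0959). C1qa and C1qc, the other chains, had log2 fold changes of -0.40 ± 0.11 and -0.35 ± 0.12 and were not called. C3ar1, the receptor for C3a, had medians of 2.95 and 1.70 CPM, and C4b, a component of the classical pathway, 109.5 and 63.8 CPM. In all, 8 of 19 members were lower and 0 higher at an unadjusted p under 0.05, with a median of -0.20. The background outside the window was 0.0523% called lower and 3.48% lower at that p. With 1 library left out the median spanned -0.375 (without DM replicate 6) to -0.179. It was -0.347 when only genes with a mean of at least 1 CPM were tested.

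Among 27 tested Fc and phagocytic receptors and associated myeloid genes, 2 were called, both lower (background of lower calls 0.0523%). Both belong to the associated myeloid genes, and the list was chosen with earlier results of these data known. Mpeg1, perforin-2, a pore-forming protein of macrophages, was at 42.7, 43.8 and 48.6 CPM in Q175 (lowest, median, highest) and at 32.2, 33.8 and 40.5 CPM in DM. Its groups did not overlap, and it fell by 0.36 ± 0.08 (log2, adjusted p by edgeR of 0.0362), a call that held in 4 of 12 fits with 1 library left out. It was lost without Q175 replicate 2, 3, 5 or 6 or DM replicate 1, 3, 4 or 5 (adjusted p by edgeR of up to 0.153).

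Adgre1 encodes F4/80, the classical surface marker of macrophages. It spanned 3.91, 6.59 and 7.74 CPM in Q175 and 3.27, 3.76 and 4.82 CPM in DM, with overlap through the lowest Q175 library. Adgre1 fell by 0.71 ± 0.14 on the log2 scale (adjusted p by edgeR of 0.0232). With 1 library left out, this call held only without Q175 replicate 1, DM replicate 2 or DM replicate 6. It was lost without any other of the 12 (adjusted p by edgeR of up to 0.117). In a fit of the 12 libraries alone its adjusted p was 0.217 by edgeR.

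Other members of this group missed the call. Cd14, a co-receptor for lipopolysaccharide, had medians of 3.29 and 1.95 CPM without overlap (-0.83 ± 0.19, adjusted p by edgeR of 0.0935). Fcgr3, an activating Fc receptor, also had separate groups, at 10.6 to 11.8 CPM in Q175 and 7.76 to 9.44 CPM in DM (-0.39 ± 0.10). The inhibitory receptor Fcgr2b had medians of 4.35 and 2.58 CPM, and Fcer1g, another adaptor with an ITAM, of 8.03 and 6.07 CPM. In total 10 of 27 were lower at an unadjusted p under 0.05, and 3 were higher: Mfge8, Tyro3 and Adgrb1, phagocytosis genes of astrocytes and neurons as well, with log2 fold changes of 0.13 to 0.19. At that p, 3.48% of genes outside the window were lower and 2.37% higher.

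None of the homeostatic microglia genes was called higher. Of 24 tested, 1 was called lower, Cd33, which lies in the chromosome 7 window and is given there. Another 8 were lower at an unadjusted p under 0.05 and 0 were higher, with a median over the list of -0.17 (background 0.0523% called lower, 3.48% lower at that p). Tgfbr1, the receptor chain through which TGF-beta keeps microglia homeostatic, had medians of 39.3 CPM in Q175 and 31.1 CPM in DM, and Cx3cr1, the fractalkine receptor, 61.5 and 48.2 CPM. Sall1, the transcription factor that marks microglia, had 38.6 and 31.5 CPM, with overlap between groups for each of these. The mean log2 level of the list was 4.29 to 4.37 in Q175 and 4.14 to 4.30 in DM, against medians of 4.34 and 4.19.

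**Figure D3:**
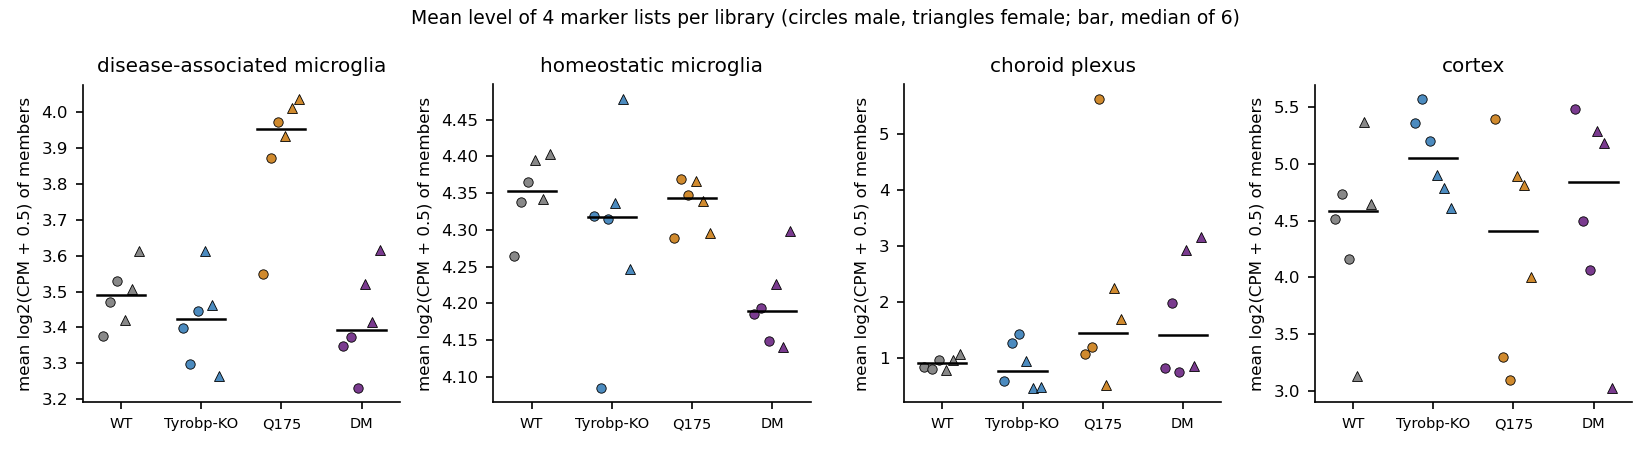
Mean log2(CPM + 0.5) of the members of 4 lists in each library by genotype; circles are males, triangles females and bars the median of 6. For disease-associated genes the DM median is 3.39 against 3.95 in Q175, and Q175 replicate 3 stands alone at 5.62 for choroid plexus genes.

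The transcription factors of microglia were not called. Of 23 tested, 5 were lower at an unadjusted p under 0.05 and 0 higher (background 3.48% and 2.37%). The 5 were Stat3, Runx1, Irf5, Irf8 and Spi1. Spi1, which encodes PU.1, had medians of 4.18 CPM in Q175 and 3.15 CPM in DM (-0.47 ± 0.18), and Irf8, its partner in myeloid cells, 10.7 and 8.03 CPM. Stat3, which many cell types express, was the only one without overlap, at 63.6 to 75.6 CPM and 58.0 to 62.9 CPM.

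Of 35 lysosomal genes tested, none was called by edgeR. At an unadjusted p under 0.05, 9 were lower (background 3.48%) and 0 higher, and the median was -0.06, or -0.0394 without DM replicate 5. Ctsh, a cathepsin, had the smallest p, with medians of 9.97 and 7.27 CPM (-0.56 ± 0.13, adjusted p of 0.106 by edgeR and of 0.0171 by DESeq2). Hexa, a chain of lysosomal hexosaminidase, had 52.2 and 44.4 CPM, and Lamp1, the abundant lysosomal membrane protein, 338.3 and 297.2 CPM. Cholesterol genes (22 tested) had a median of -0.04 and cytokines, chemokines and their receptors (21 tested) of -0.10, with no call in either.

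Reactive astrocyte genes gave no call among 28 tested. In 2 of them all DM libraries were below all Q175 libraries, as in 0.241% of genes outside the window. At an unadjusted p under 0.05, 6 were lower and 0 higher (background 3.48% and 2.37%). A negative fold change was seen in 18 of 28 (50.7% outside the window). The list median was -0.11, and it was -0.31 in males and 0.0006 in females. Gfap, the intermediate filament of reactive astrocytes, was at 155.1, 203.3 and 254.5 CPM in Q175 (lowest, median, highest) and at 64.1, 130.2 and 147.7 CPM in DM. The DM libraries were all below the Q175 libraries. DM replicates 1, 4, 5 and 6 were at 129.3 to 147.7 CPM, near the WT median of 136.2 and the KO median of 144.7 CPM. DM replicates 2 and 3 were lower, at 64.1 and 91.1 CPM. The log2 fold change was -0.82 ± 0.19, with an adjusted p of 0.151 by edgeR and of 0.00352 by DESeq2. Serpina3n, a secreted protease inhibitor that rises in reactive astrocytes, had 9.48 to 14.0 CPM in Q175 and 6.34 to 9.02 CPM in DM (-0.57 ± 0.19, adjusted p by edgeR of 0.642). Its WT median was 6.21 CPM. Osmr, a cytokine receptor, and Cd44, an adhesion receptor, had fold changes of -0.47 ± 0.20 and -0.37 ± 0.17. Markers of astrocytes in general (16 tested) had a median of -0.01 and no member at an unadjusted p under 0.05.

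Neuronal genes showed no call. Striatal projection neuron genes, among them the dopamine receptors Drd1 and Drd2 and the phosphodiesterase Pde10a, had 0 of 36 called, 0 at an unadjusted p under 0.05 in either direction and a median of -0.05, though 30 of 36 were negative. Genes that change in Huntington knock-in striatum (16 tested) had a median of 0.01. Among them Phex, a membrane protease, had medians of 1.75 CPM in Q175, 2.33 CPM in DM and 8.08 CPM in WT (0.40 ± 0.17, adjusted p by edgeR of 0.818). Synaptic genes (36 tested) had a median of 0.07 and immediate early genes (19 tested) of 0.02.

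Markers of other cell types were compared in the same way. Myelin genes, oligodendrocyte precursor genes and endothelial and mural genes had medians of -0.01, -0.04 and -0.0017, with no call. Border macrophage markers could be tested for 4 of 13 and blood leukocyte markers for 3 of 20, so that most of their defining members had too few reads. Mrc1, the mannose receptor of border macrophages, had medians of 1.25 CPM in Q175 and 0.990 CPM in DM, and Cd163, a scavenger receptor, 14.7 and 14.8 CPM. The summed level of the 4 border macrophage markers was 18.8 to 34.0 CPM in Q175 and 17.6 to 27.2 CPM in DM, and its part in the myeloid differences was not tested. The choroid plexus list had a median of -1.14, and of 0.73 without Q175 replicate 3, so that 1 library sets its direction. With the 3 libraries of highest choroid plexus level left out (Q175 replicate 3, DM replicates 4 and 6), 3 disease-associated genes were called lower in place of 5. The calls lost were those of Itgax and Cst7. Their log2 fold changes were then -3.395 and -2.181, with adjusted p by edgeR of 0.134 and 0.609 in this smaller set.

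**Figure D4:**
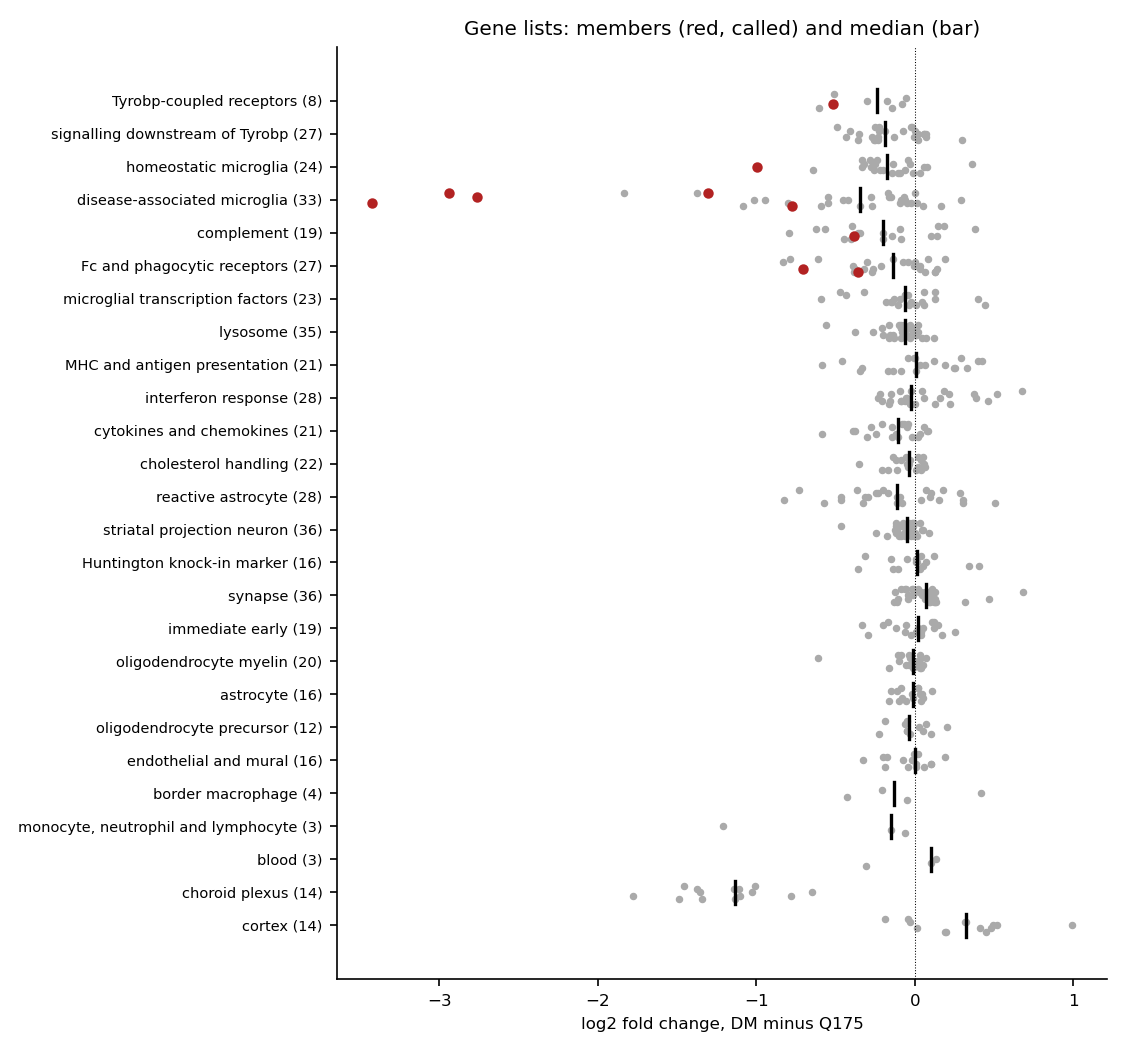
Log2 fold change in DM minus Q175 of each tested member of 26 gene lists (points, red where called) and the median of each list (bar), with the number tested in brackets. The disease-associated list has 5 called members and a median of -0.35, and the neuronal, myelin and endothelial lists are centred near 0.

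Q175 replicate 1 was the library that most affected these counts. It had the lowest Q175 level of Lyz2, Lag3 and the disease-associated list. Without it, 27 genes outside the window were called in place of 11, of which 22 were lower. All 11 were among them, and 10 of the 16 added ones belong to the lists (525 tested entries against 19667 genes tested in the main fit). Those lists were chosen with earlier results of these data known. Among the 10 are Ctss, Tlr2, Ctsd, Pros1, Ctsh, Cd52, Cd9, C1qa and C3ar1. The number of disease-associated genes called lower was then 10 and lay between 3 and 10 when any 1 library was left out. Without DM replicate 6 the count outside the window was 17, and without Q175 replicate 6, DM replicate 1 or DM replicate 5 it was 6. It was 7 without Q175 replicate 2 or DM replicate 4.

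A further view comes from complete separation of the groups. Outside the window, 46 genes (0.241%) had all 6 DM libraries below all 6 Q175 libraries and 20 (0.105%) had them above. Of the 46, 13 are on the lists: Lyz2, Lag3, Clec7a, Trem2, Cst7, Itgax, Mpeg1, Cd14, Fcgr3, Gfap, Serpina3n, Stat3 and Ptpn6. None of the 20 is on a list. In all, the lists hold 525 tested entries against 19667 genes tested, and they were chosen with earlier results of these data known.

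The chromosome 7 window held 20 called genes, 12 lower and 8 higher, spread over 15.01 Mb from 1.59 Mb before Tyrobp to 13.4 Mb after it. By 5-Mb bins, 9 of 136 genes were called in the 5 Mb before Tyrobp (Tyrobp itself included), then 5 of 71, 2 of 26 and 4 of 96 in the 3 bins after it, and 0 in the bins beyond. Elsewhere on the chromosome 1 of 1008 genes was called, Itgax. The deletion and flanking DNA that came with it cannot be told apart in these animals.

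**Figure D5:**
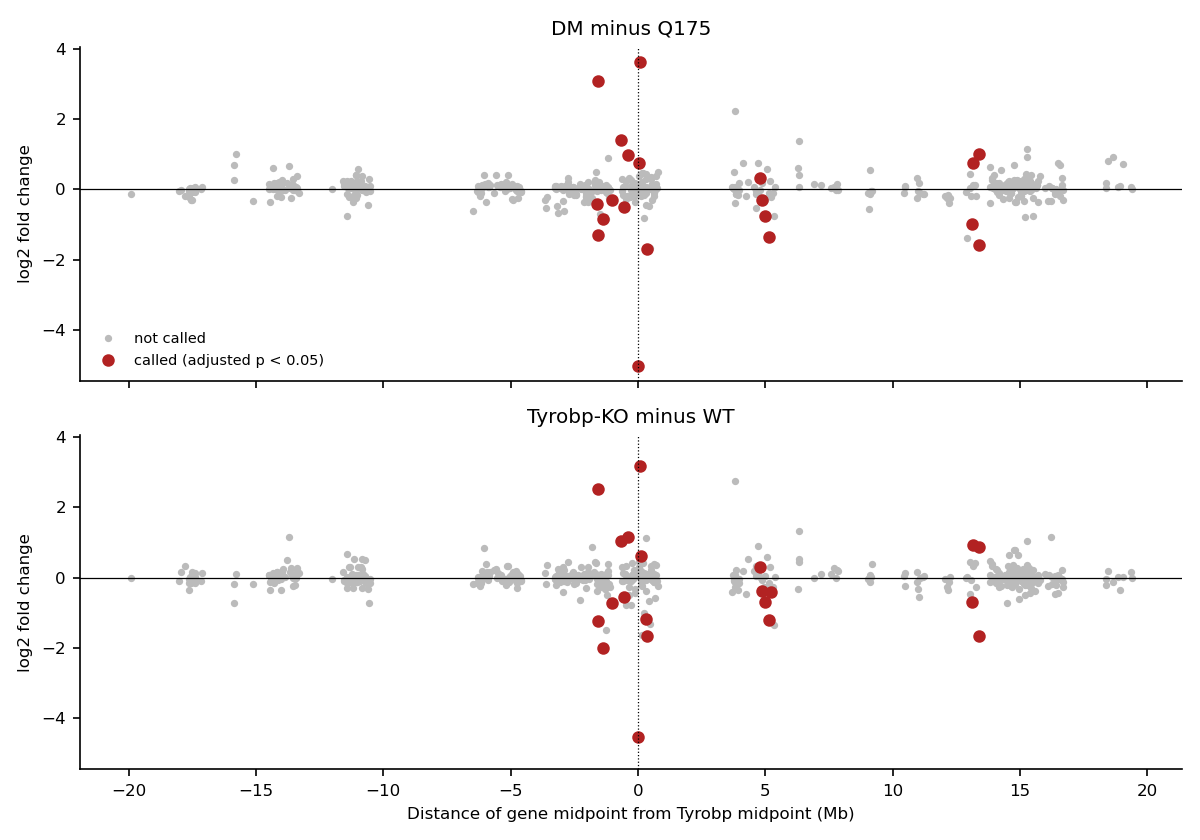
Log2 fold change of the 561 genes tested within 20 Mb of Tyrobp against the distance of their midpoints from that of Tyrobp in Mb, for DM minus Q175 (top) and KO minus WT (bottom); red points were called. Called genes lie between -1.59 and 13.4 Mb in DM minus Q175, and include higher and lower genes.

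After Tyrobp, the smallest p was that of Nudt19, a hydrolase that cleaves coenzyme A, 5.14 Mb away. It had 44.7, 48.9 and 56.6 CPM in Q175 (lowest, median, highest) and 17.2, 19.3 and 21.6 CPM in DM, with no overlap and a fall of 1.36 ± 0.07 on the log2 scale (adjusted p by edgeR of 3.47e-13). In KO it fell by 1.21. Cep89, a centrosomal protein gene beside it, fell by 0.76 ± 0.08, from a median of 20.9 to 12.2 CPM. Dmkn, dermokine, a secreted protein known from skin, fell by 1.69 ± 0.16, from a median of 9.33 to 2.87 CPM.

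Of the genes that rose in the window, Zfp14, a zinc finger gene 0.37 Mb before Tyrobp, had medians of 15.1 CPM in Q175 and 30.1 CPM in DM (0.97 ± 0.09, adjusted p by edgeR of 7.43e-08). Another zinc finger gene, Zfp658, rose by 0.76 ± 0.11 at 13.1 Mb, and Zfp420, of the same kind, fell by 0.49 ± 0.08 at -0.55 Mb. Arhgap33os and Gm10648, both annotated as antisense, rose by 3.62 ± 0.29 and 3.09 ± 0.50 from medians of 0.256 and 0.138 CPM. Use of strand in counting is not given in the sources used here, so reads of antisense genes and of their partners cannot be told apart. Kirrel2, an adhesion molecule 0.037 Mb from Tyrobp, rose by 0.76 ± 0.10 from a median of 5.74 to 9.60 CPM.

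The proteases Klk6 and Klk8, neighbours in the kallikrein cluster 13.4 Mb away, moved in opposite directions. Klk6, made by oligodendrocytes, had medians of 10.3 CPM in Q175 and 18.8 CPM in DM and rose by 1.01 ± 0.16. Klk8, neuropsin, had medians of 1.37 and 0.470 CPM and fell by 1.57 ± 0.29. Near them lies Cd33, a sialic-acid-binding receptor of microglia. It had 11, 12.7 and 15.4 CPM in Q175 (lowest, median, highest) and 5.74, 6.54 and 6.95 CPM in DM, and it fell by 0.997 ± 0.101 (adjusted p by edgeR of 5.18e-07). In KO it fell by 0.69, from a median of 11.96 to 8.25 CPM. Cd33 is both a microglial gene and a gene of the window, and which of these its fall goes with was not tested.

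The remaining window calls were smaller or scarcer. Lgals4 (galectin 4) fell by 1.31 ± 0.24, Ech1, a fatty acid oxidation enzyme, by 0.43 ± 0.08, and Gpatch1, a splicing-related gene, by 0.29 ± 0.06. Lrp3, a receptor of the LDL receptor family, rose by 0.32 ± 0.05, and the pseudogene Gm44954 by 1.41 ± 0.20. Sipa1l3, a Rap GTPase regulator, fell by 0.29 ± 0.06, a call kept in 5 of 12 fits with 1 library left out, and that of Gpatch1 was kept in 3 of 12.

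Pdcd5-ps (chr1:189277443-189277823, GRCm38, in Kcnk2 on the same strand) was the only gene called higher outside the window. It had 0.399, 0.579 and 0.760 CPM in Q175 (lowest, median, highest) and 2.03, 2.29 and 3.13 CPM in DM. The groups were far apart, and Pdcd5-ps rose by 2.06 ± 0.23 on the log2 scale (adjusted p by edgeR of 3.02e-06). It is an annotated copy of Pdcd5, a gene linked to apoptosis, which lies in the chromosome 7 window 5.23 Mb from Tyrobp. In GENCODE M21 transcripts, all 381 bases of Pdcd5-ps were identical to bases 151 to 531 of the 684 bases of Pdcd5, the stretch that starts at the ATG, so that a read inside it can be placed at either gene. The first 90 bases, the same in both, are shown to illustrate this.
Pdcd5-ps: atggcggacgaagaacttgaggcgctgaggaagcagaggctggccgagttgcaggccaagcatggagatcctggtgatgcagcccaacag
Pdcd5 had medians of 19.7 CPM in Q175 and 16.9 CPM in DM (-0.21 ± 0.08, adjusted p by edgeR of 0.809), and Kcnk2 a log2 fold change of -0.03 ± 0.09. In KO against WT, Pdcd5-ps was called higher and Pdcd5 lower (-0.42, adjusted p by edgeR of 0.0287). Gm10561, the last of the 11, is annotated as antisense and overlaps Rftn2. It had 4.30 to 7.59 CPM in Q175 and 2.81 to 4.26 CPM in DM (-0.69 ± 0.14, adjusted p by edgeR of 0.0196). The call of Gm10561 was lost without Q175 replicate 3, 5 or 6 or DM replicate 1 or 5 (adjusted p by edgeR of up to 0.0891). It was also lost in a fit of the 12 libraries alone (adjusted p by edgeR of 0.120).

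Without the Q175 allele the deletion gave 23 calls in KO against WT (0.117%), 21 in the window (3.74%) and 2 outside it (0.0105%). The contrast shares no library with DM against Q175. Called in both were 20 genes, 18 in the window plus Lag3 and Pdcd5-ps, and all 20 had the same direction. Kirrel2 and Ech1 were called in DM alone, and Sbsn, Pdcd5 and Hspb6 in KO alone, which by itself shows no difference between the contrasts. The disease-associated list had a median of -0.02 in KO against WT, and the Tyrobp-coupled receptors of -0.12.

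The test of the difference between the 2 contrasts called 0 of 19667 genes with edgeR, with 707 at an unadjusted p under 0.05 (3.59%), and 2 with DESeq2, Ryr1 and Sipa1l3. Ryr1, the skeletal muscle ryanodine receptor and a gene of the window, had the smallest p. Its medians were 151.8 CPM in WT, 34.1 CPM in KO, 34.1 CPM in Q175 and 19.9 CPM in DM. The fall was thus 2.01 on the log2 scale without the Q175 allele and 0.85 with it, a difference of 1.16 ± 0.20 (adjusted p by edgeR of 0.123). Of the 33 disease-associated genes, 10 had an unadjusted p under 0.05 in this test, where 3.56% of genes outside the window did. Among them were Lyz2 with -0.88, Clec7a with -2.21 and Cst7 with -2.53, none of them called.

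The sexes were compared within the same contrast. No gene was called for a different effect of the deletion in females and males by edgeR, with 1217 at an unadjusted p under 0.05 (6.19%), and 3 were by DESeq2. Tyrobp fell by 4.70 in males and by 5.33 in females on the log2 scale. The disease-associated list had medians of -0.31 in males and -0.29 in females. Interferon-response genes, which cells switch on by way of Stat2 and Irf9, had a median of -0.02 over both sexes, but of -0.53 in males and 0.48 in females. Of 28 tested, 25 were lower in males and higher in females, and 18 had an unadjusted p under 0.05 for the difference between sexes. Their mean log2 level was 1.61, 1.65 and 1.68 in DM males, below the 1.82 to 2.24 of Q175 males, and 2.20, 2.64 and 2.69 in DM females, above the 1.89 to 2.16 of Q175 females. A single KO female, replicate 4, reached 2.92. Choroid plexus genes had the same pattern of signs, with 0 called. All 14 tested were lower in males (median -3.40) and higher in females (median 0.96), and 14 had an unadjusted p under 0.05 for the difference between sexes. Q175 replicate 3, the highest Q175 male for interferon genes at 2.24, stood at a mean log2 choroid plexus level of 5.62. DM replicates 6 and 4, at 2.69 and 2.64 for interferon genes, stood at 3.15 and 2.92, against 0.515 to 2.25 in the other libraries of both genotypes. The remaining DM female stood at 2.20 in interferon level, beside Q175 females of 1.89 to 2.16. The part of choroid plexus tissue in the differences between the sexes was not tested. Genes of MHC and antigen presentation had medians of -0.31 in males and 0.47 in females.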

How the data were processed

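RNA of 24 striatal libraries was sequenced on an Illumina NovaSeq instrument, per the labels' protocols. The authors deposited raw read counts per gene for 54532 genes with coordinates. STAR, featureCounts and DESeq2 are named in the submitters' processing notes, without versions. The build named there is GRCh38, a human build, while the deposited coordinates are those of mouse GRCm38 (GENCODE M21).

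Counts were tested with edgeR 4.0.16 in R 4.3.3: TMM scaling, filterByExpr by genotype (19667 genes kept), a robust quasi-likelihood fit of all 24 libraries with genotype means and a sex term, and Benjamini-Hochberg adjustment over all genes tested, at 0.05. The biological coefficient of variation was 16.2%. SE is the absolute log2 fold change over the root of F. CPM are TMM-scaled. No pair of libraries within a genotype of the main contrast agreed within sampling noise: chi-square averaged 7.00 to 42.6 per gene over 30 pairs (genes with 20 reads or more). A count of 0 in a group allows 0.0181 CPM in Q175 and 0.0182 CPM in DM (3 counts, counting error only).

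There were 26 gene lists with 605 entries, 525 of them tested. Lists are described by counts and medians. The members and lists were chosen with earlier results of these data known. Genes named by rule were Tyrobp, Htt, every called gene, 2 members of smallest p per list, the 3 of smallest p in each interaction and the window genes called in KO. Other list members named were chosen after their values were seen, and some items that the rule names are not reported here. Alternatives were other scalings and filters, limma-voom (limma 3.58.1), DESeq2 1.42.0, each sex alone, each library left out and terms for dissection. The script was tested on simulated data.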

Additional observations from a re-analysis of the deposited data

Results flagged for a closer look

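A library that stands alone at one end of its group of 6 was looked for in 168 groups of gene levels and 52 of mean list levels (220 in all), by Dixon's ratio at its 95% critical value. It was found in 19 (8.64%), where chance gives about 1 in 20. Of the 19, 7 were in Q175 replicate 3 and 5 in Q175 replicate 1.

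Q175 replicate 1 was the low library for Lyz2 (6.08 CPM), Lag3 (6.43 CPM), the disease-associated list (mean log2 level 3.55) and the Fc and phagocytic list (4.67), and the high library for Gpatch1 (33.35 CPM). Q175 replicate 3 was the high library for Sostdc1 (28.0 CPM), Folr1 (24.9 CPM), Enpp2 (1917 CPM), Rsph1 (7.355 CPM), Dab2 (17.6 CPM), the choroid plexus list (mean log2 level 5.62) and the border macrophage list (2.31). Sostdc1, Folr1 and Enpp2 are highly expressed in the choroid plexus epithelium. Dusp6 was high in Q175 replicate 5 at 55.8 CPM.

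In DM, replicate 6 was high for Clec7a (0.835 CPM) and Dab2 (9.37 CPM), replicate 1 for Klk6 (24.5 CPM) and replicate 2 for Gpatch1 (27.0 CPM). Neu4 stood apart in replicate 2 at 4.68 CPM, and the lysosome list was low in replicate 3 at a mean log2 level of 5.64.

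Opposite moves in the sexes were seen for the interferon-response list and for Irf7, a transcription factor of that response. For each, all 3 DM females were above all 3 Q175 females and all 3 DM males below all 3 Q175 males. Choroid plexus genes had differences of the same signs, with medians of -3.40 in males and 0.96 in females (log2 fold change). The libraries of highest choroid plexus level were Q175 replicate 3, a male (mean log2 level 5.62), and the females DM replicates 6 and 4 (3.15 and 2.92). Their part in these differences was not tested. The female difference less the male difference was 0.847 in the mean log2 level of the list (0.459 in females, -0.388 in males) and 1.38 in log2(CPM + 0.5) of Irf7. For the list this difference was not tested. For Irf7 the edgeR interaction of deletion and sex was 1.65 on the log2 scale (adjusted p = 0.692).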

How the results depend on the processing

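Of 765 counts and list medians recomputed under an alternative, 712 stayed within the bounds set and 53 moved. Of the log2 fold changes of named genes, 1846 kept direction and side of the threshold, 118 lost a call, 14 gained one and 28 changed sign. Genes called in DM against Q175 were 52 with DESeq2 (41 lower, 32 outside the window), 11 in males alone (4 higher, 7 lower, 9 in the window, 2 outside) and 11 in females alone (3 higher, 8 lower, 8 in the window, 3 outside), fits with 3 libraries a side. With only the 12 libraries, 7 were called outside the window. Without the 3 libraries of highest choroid plexus level, an alternative added after seeing the data, 12 were called lower and 13 in the window. With 1 library left out, called-lower genes numbered 14 to 33 and those outside the window 6 to 27. DESeq2 called 2 genes for the interaction and 3 for the sex interaction. List medians (log2) moved as follows. In males alone they were -0.107 for transcription factors, -0.308 for MHC, -0.531 for interferon response, -0.194 for cytokines, -0.306 for reactive astrocytes, -0.301 for immediate early genes and -3.40 for choroid plexus. In females alone they were -0.0763 for downstream signalling, 0.460 for MHC, 0.474 for interferon response, 0.0388 for reactive astrocytes and 0.962 for choroid plexus. A mean of at least 1 CPM gave -0.172 for disease-associated genes and -0.347 for complement, and no filter gave -0.620 for blood leukocytes. A cortex term gave -0.110 for signalling. Without the 3 choroid plexus libraries the medians were -0.119 for signalling, -0.0682 for astrocytes and -0.396 for blood. With 1 library left out they spanned -0.298 to -0.147 for Tyrobp-coupled receptors, -0.426 to -0.222 for disease-associated genes (-0.222 without Q175 replicate 3), -0.211 to -0.0954 for signalling (-0.0954 without DM replicate 3), -0.375 to -0.179 for complement (-0.375 without DM replicate 6), -0.117 to 0.00415 for striatal neurons (above 0 without DM replicate 1), 0.0335 to 0.0940 for synapse, -0.166 to -0.0788 for cytokines and -1.70 to 0.732 for choroid plexus. None of the 31 called genes changed sign in any setting run. Of the genes that did, Gm47283 was called lower in females alone (adjusted p by edgeR of 0.0216), and the others were called in no setting that turned their sign. In males alone they were Tap1 (-0.308), Irf7 (-0.435) and Cox6c (0.303). In females alone they were Sostdc1 (0.536), Dab2 (0.310), Enpp2 (0.189), Folr1 (0.384), Gm47283 (-0.694) and Rsph1 (0.868). With 1 library left out, values spanned -2.22 to 0.491 for Sostdc1, -0.761 to 0.122 for Enpp2, -1.92 to 0.185 for Folr1 and -0.376 to 0.155 for Rsph1, positive without Q175 replicate 3, -0.138 to 0.296 for Gm47283 (negative without DM replicate 2), -0.00486 to 0.104 for Hspb6 (negative without DM replicate 1), -0.0795 to 0.581 for Hbb-bs and -0.0584 to 0.0760 for Cox6c. Cox6c was also 0.0013 with no filter, 0.000229 with limma-voom and 0.00657 without the 3 choroid plexus libraries, where Hbb-bs was -0.396. The cause of these changes was not tested, beyond the smaller number of libraries in some. No paired analysis was possible because the labels give the genotypes no shared replicate numbers. Depth limits scarce genes most: Cst7, Itgax and Clec7a rest on under 1 CPM in DM. The deletion, its flanking DNA and the animal-number prefix cannot be told apart.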

Other observations

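Some myeloid genes that are on none of the lists were lower in DM without passing the edgeR test. They were chosen after their values were seen, from the genes that DESeq2 called. Ly86, which encodes MD-1, a partner of a Toll-like receptor relative, was at 9.40 to 13.7 CPM in Q175 and at 7.30 to 8.45 CPM in DM, with no overlap (log2 fold change -0.45 ± 0.10, adjusted p of 0.0704 by edgeR and 0.00678 by DESeq2). Ptprc, which encodes CD45, was at 6.20 to 8.40 CPM in Q175 and at 2.49 to 7.34 CPM in DM, where replicate 6 alone was above the lowest Q175 library (adjusted p of 0.152 by edgeR and 0.0219 by DESeq2). Slc11a1, a metal transporter of phagosomes, had medians of 3.65 and 2.28 CPM (adjusted p of 0.182 by edgeR and 0.0339 by DESeq2).

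Mettl16, which encodes an RNA methyltransferase, fell into separate levels within the deletion genotypes. In DM, 5 libraries were at 16.2 to 17.3 CPM and replicate 3 at 31.1 CPM. In KO, replicates 3, 4 and 5 were at 16.4, 13.5 and 18.2 CPM and replicates 1, 2 and 6 at 32.9, 33.5 and 34.9 CPM. All 6 Q175 libraries were at 33.6 CPM or more, and the WT libraries at 32.4 to 39.3 CPM. The log2 fold change in DM against Q175 was -0.93 ± 0.20 (adjusted p of 0.0863 by edgeR and 0.00335 by DESeq2). Mettl16 is on chromosome 11, and the cause was not tested.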
